A study of Mus musculus with 22 samples.

Results

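The accessible regions around the 3 mouse genes of the Jun family, Junb, Jund and Jun, were compared between retinal endothelial cells with and without sphingosine 1-phosphate receptor deletion. Members were the ATAC-seq peaks whose midpoint lay in 1 of 3 windows of the mm9 genome build: 87.44 to 87.56 Mb of chromosome 8 for Junb, 73.16 to 73.30 Mb of chromosome 8 for Jund, and 94.60 to 94.85 Mb of chromosome 4 for Jun. These windows held 182 of 108489 deposited peaks, 102 in the control list and 80 in the gTKO list. Control pups had the genotype S1pr3-/- S1pr1flox/flox S1pr2flox/flox, in which loxP sites flank S1pr1 and S1pr2 and S1pr3 is deleted, and gTKO pups had in addition Rosa26-CreERT2, a tamoxifen-activated recombinase driven from a locus that is active in most cell types. Both genotypes, on a C57BL/6 background, received 100 ug tamoxifen by intraperitoneal injection from postnatal day 1 to 3 and were studied at postnatal day 6. S1pr3 was therefore absent from controls as well, and the driver did not limit deletion to endothelial cells. Whether S1pr1 and S1pr2 were deleted was not examined here. Each of the 3 ATAC-seq libraries per genotype came from sorted cells of the pooled retinas of 4 to 6 pups, with 5000 to 8000 cells per reaction. The labels call the cells adult in 1 entry and postnatal in another. No marker gene could be examined in these lists, so the labelled cell type was not checked.

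Junb, Jund and Jun encode basic leucine zipper proteins that bind DNA as dimers, with each other or with Fos family proteins, and together these dimers form the transcription factor AP-1. Jun is an immediate early gene that growth factors and stress induce quickly and whose product can act on its own promoter, Junb is likewise inducible and takes part in vascular development, and Jund is expressed more evenly across tissues. The title of the series links sphingosine 1-phosphate receptor signaling to AP-1 gradients. ATAC-seq uses the Tn5 transposase, which cuts and tags DNA that is free of nucleosomes, and a peak is a stretch where such cuts are concentrated.

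The starts of the 3 genes are shown because they name the windows and because the gene for Jun is known for regulation by AP-1 itself. The sequences are those of RefSeq in build GRCm38.p6, 250 bases before to 50 bases after the annotated start, 5′ to 3′ in the direction of the gene, from chr8:84978699-84978998 (minus strand) for Junb, chr8:70697489-70697788 (plus strand) for Jund and chr4:95052173-95052472 (minus strand) for Jun. Capitals mark matches to the motifs searched.
Junb: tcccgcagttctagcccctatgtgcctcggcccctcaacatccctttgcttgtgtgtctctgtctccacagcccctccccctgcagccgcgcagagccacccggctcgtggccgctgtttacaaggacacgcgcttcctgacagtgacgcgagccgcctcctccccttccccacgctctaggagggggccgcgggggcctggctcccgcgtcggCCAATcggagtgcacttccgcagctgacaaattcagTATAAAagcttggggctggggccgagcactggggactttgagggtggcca
Jund: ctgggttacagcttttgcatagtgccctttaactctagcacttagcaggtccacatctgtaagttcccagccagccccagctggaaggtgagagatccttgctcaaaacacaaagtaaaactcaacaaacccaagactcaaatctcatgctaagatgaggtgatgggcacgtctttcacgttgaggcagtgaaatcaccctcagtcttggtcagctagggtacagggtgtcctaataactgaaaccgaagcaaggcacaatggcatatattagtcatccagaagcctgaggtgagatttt
Jun: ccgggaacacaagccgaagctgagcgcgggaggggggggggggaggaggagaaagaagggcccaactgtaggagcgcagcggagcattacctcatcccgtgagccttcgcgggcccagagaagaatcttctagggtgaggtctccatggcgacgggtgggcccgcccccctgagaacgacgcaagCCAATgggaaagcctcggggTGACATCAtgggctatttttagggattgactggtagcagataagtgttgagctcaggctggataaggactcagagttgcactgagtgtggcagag
Motifs were searched on both strands. They were the AP-1 site TGANTCA, an AP-1 variant site TGACATCA, the cAMP response element TGACGTCA, the CCAAT box (CCAAT), the TATA box (TATAAA) and the CArG box, and none of the matches found overlapped. The Jun sequence held TGACATCA, which 3.62% of 32851 RefSeq promoters of this length hold on either strand, and a CCAAT box, which 37.4% hold. Junb held a CCAAT box and a TATA box, the latter present in 13.6% of promoters. The TATA box match at Junb begins at the annotated start itself, and whether it acts was not tested. The Jund sequence held none of the 6 motifs. A single annotated start was searched per gene, and whether these cells use it was not examined. The AP-1 site, present in 7.81% of all promoters, the cAMP response element (1.79%) and the CArG box (1.63%) had no match in the 3 sequences. The G and C content was 65.3% for Junb, 46.7% for Jund and 60.0% for Jun, against a median of 52.7% over all promoters. These positions belong to another build than the peaks, so which peak covers which promoter was not determined, and no peak below is assigned to a gene. The protein-coding genes next to Junb in GRCm38 are Prdx2 and Hook2, those next to Jund are Lsm4 and Iqcn, and those next to Jun are Mysm1 and Fggy, and any of them may share a window.

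The peaks of each genotype come as a single list without heights, scores or p-values, and the read depth behind it is unknown. There is thus no replicate error and no test between genotypes, and every difference below is a difference between 2 lists. The control list is the longer one, with 57267 regions on placed chromosomes covering 31.4 Mb, against 49558 regions covering 24.2 Mb in gTKO. A list from fewer reads or with lower signal would also hold fewer and narrower peaks, and the part of depth in what follows was not tested. Most values are therefore set beside the same values over all placed regions of the lists. Neighbouring regions are not independent, and the intervals given (exact Clopper-Pearson, 95%) cover counting error only.

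In all 3 windows the control list covered more sequence than the gTKO list, and the gap was widest at Jund. Control regions numbered 30 at Junb, 48 at Jund and 24 at Jun, and gTKO regions 25, 35 and 20. At Junb the control list covered 25701 bp and the gTKO list 16825 bp, which is 21.4% and 14.0% of the window. At Jund the control list covered 41722 bp, or 29.8% of the window, and the gTKO list 16704 bp, or 11.9%. At Jun, in the longest window and the one with the sparsest regions, coverage was 16226 bp (6.49%) and 11317 bp (4.53%). In bp, the covered lengths of Junb and Jund were thus far apart in controls and nearly equal in gTKO. The windows are 120 and 140 kb long, however, and as a share of the window gTKO coverage was higher at Junb. Of the control sequence, 64.7% also lay in gTKO regions at Junb, 39.6% at Jund and 65.7% at Jun, against 71.5% over all placed control regions, of whose sequence 28.5% lay outside the gTKO list. Conversely, 98.9% of gTKO sequence at Junb, 98.8% at Jund and 94.2% at Jun lay inside control regions. Outside them were 189 bp at Junb, 198 bp at Jund and 651 bp at Jun. The same share over all placed gTKO regions was not computed, so this is not given as a trait of these windows.

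**Figure D1:**
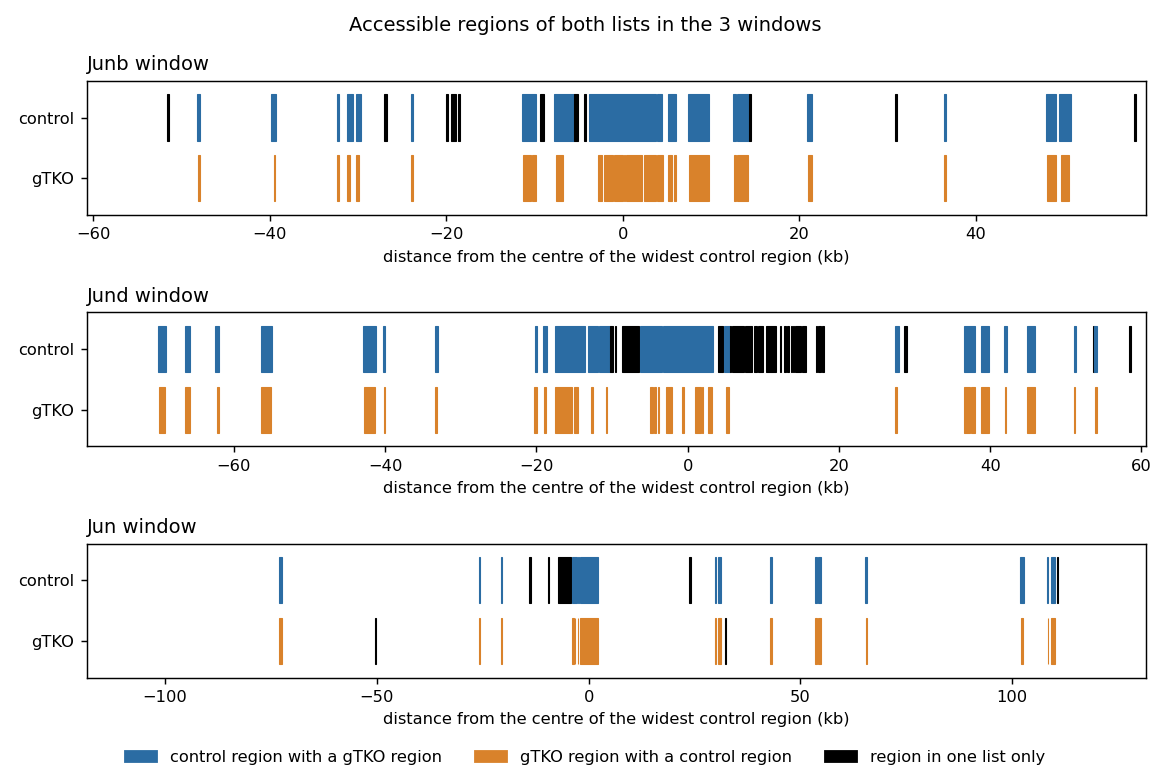
Accessible regions of the control list (upper row of each panel) and the gTKO list (lower row) in the Junb, Jund and Jun windows, against the distance in kb from the centre of the widest control region. Blue and orange mark regions with at least 1 bp in common with the opposite list, and black marks the 45 control and 2 gTKO regions without. Most black control regions at Jund lie to the right of the widest region, and most of those at Jun to its left.

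The 3 windows were also set beside all windows of their own length, tiled along the chromosomes, that held at least 10 control regions. Tiles that overlap the 3 windows were not removed. The median tile had 71.0% of its control sequence in gTKO regions at the length of the Junb window (quartiles 64.4 and 76.9%), 71.4% at that of Jund (65.0 and 76.9%) and 72.3% at that of Jun (66.8 and 77.4%). Junb and Jun lay near the lower quartile, with 378 of 1478 and 461 of 2083 tiles at or below them. Jund lay lower, with 31 of 1645 tiles (1.88%) at or below its share. All 3 windows were rich in control accessibility for their length. As much control sequence as at Jund was found in 4 of 1645 tiles, as much as at Junb in 17 of 1478, and as much as at Jun in 274 of 2083.

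Over the 3 windows, 45 control regions and 2 gTKO regions overlapped no region of the opposite list. Over all placed regions the control list also held more of these, 15471 against 4830 in the gTKO list. At Jund, 26 of 48 control regions (54.2%, interval 39.2 to 68.6%) overlapped no gTKO region, against 27.0% of all placed control regions. At Junb the number was 11 of 30 (36.7%, interval 19.9 to 56.1%) and at Jun 8 of 24 (33.3%, interval 15.6 to 55.3%), and both intervals include the 27.0% of the whole list. The order of the loci by this count depends on how regions are delimited. With neighbours of each list merged across gaps of up to 150 bp, 11 of 31 control regions at Jund (35.5%), 9 of 25 at Junb (36.0%) and 5 of 20 at Jun (25.0%) had no partner, against 24.2% of all. Across gaps of up to 500 bp, Jund had the lowest share, with 3 of 22 (13.6%), beside 5 of 19 at Junb (26.3%), 4 of 15 at Jun (26.7%) and 22.3% of all. The covered share of sequence at Jund stayed near its value above under both mergers, at 39.2 and 38.1%.

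In the other direction, gTKO regions without a control region numbered 0 of 25 at Junb (interval 0 to 13.7%) and 0 of 35 at Jund (interval 0 to 10.0%). At Jun they numbered 2 of 20 (10.0%, interval 1.23 to 31.7%). Of all placed gTKO regions 9.75% had none, a share that the intervals of all 3 windows include. Both at Jun were narrow, chr4:94668174-94668410 (237 bp) and chr4:94750667-94750876 (210 bp).

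The control-only regions of the Jund window were mostly consecutive. From 73245101 to 73257473 on chromosome 8, 19 control regions followed each other with no gTKO partner, covering 8289 bp with widths of 151 to 1543 bp (median 313 bp). The gTKO list had no region over 21979 bp here, from 73244912 to 73266890. Over the placed chromosomes, control-only regions formed 10342 such runs, of which 3 were longer and the longest held 61 regions. The run held 19 of the 26 control-only regions of the window. Its length depends on how regions are delimited. With neighbours merged across gaps of up to 500 bp, 3 of 22 control regions at Jund were control-only, and runs were not counted again. At Jun the longest run held 6 regions, from 94704518 to 94714343 on chromosome 4, covering 3446 bp. It held 6 of the 8 control-only regions at Jun, and runs of at least that length numbered 129. At Junb the longest run held 3 regions, from 87480737 to 87482352 on chromosome 8, and 1026 runs were at least as long. The control-only regions at Junb were thus more scattered than those at Jund and Jun.

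At each locus the control-only regions of at least 300 bp were few enough to name. At Junb there were 5 and none exceeded 509 bp: chr8:87481309-87481817 (509 bp), chr8:87495208-87495647 (440 bp), chr8:87491420-87491784 (365 bp), chr8:87473674-87474002 (329 bp) and chr8:87558648-87558967 (320 bp). At Jun there were 6, and 5 of them were in the run described above. The widest of these was chr4:94713013-94714343 (1331 bp), followed by chr4:94712303-94712997 (695 bp), chr4:94704518-94704970 (453 bp), chr4:94711797-94712216 (420 bp) and chr4:94711392-94711746 (355 bp), while chr4:94742269-94742669 (401 bp) lay apart. At Jund there were 14, of which the widest, chr8:73230785-73233065 (2281 bp), lay at lower coordinates than the run. Within the run they were chr8:73245365-73246907 (1543 bp), chr8:73253694-73254456 (763 bp), chr8:73250470-73251171 (702 bp), chr8:73247006-73247702 (697 bp), chr8:73249830-73250452 (623 bp), chr8:73254570-73255134 (565 bp), chr8:73248185-73248626 (442 bp), chr8:73252139-73252501 (363 bp), chr8:73249032-73249383 (352 bp) and chr8:73256717-73257029 (313 bp). The remaining 3 at Jund were chr8:73243506-73244185 (680 bp), chr8:73268109-73268490 (382 bp) and chr8:73229224-73229570 (347 bp).

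Wide control regions without a partner are rare in these lists, and 3 of them lay in the windows. Of 8738 control regions at least 1000 bp wide, 41 (0.469%) had no gTKO region. The windows held 22 control regions of this width, and those without a partner were the 2281 bp and 1543 bp regions at Jund and the 1331 bp region at Jun. Only 5 of 964 control regions at least 2000 bp wide (0.519%) had no gTKO region, and the 2281 bp region at Jund was 1 of them. Among regions 500 to 999 bp wide, where 3.65% of all control regions had no partner, 6 of 12 had none at Jund, 1 of 7 at Junb and 1 of 7 at Jun. At 300 to 499 bp, where 19.1% of all control regions had none, the numbers were 6 of 9 at Jund, 4 of 6 at Junb and 4 of 8 at Jun. At 150 to 299 bp, where 52.5% of all control regions had none, the numbers were 12 of 15 at Jund, 6 of 10 at Junb and 2 of 6 at Jun. From 150 to 999 bp, the shares at Jund and Junb were above those of the whole list in each class. Those at Jun were so at 300 to 499 and 500 to 999 bp only, and each class held few regions.

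**Figure D2:**
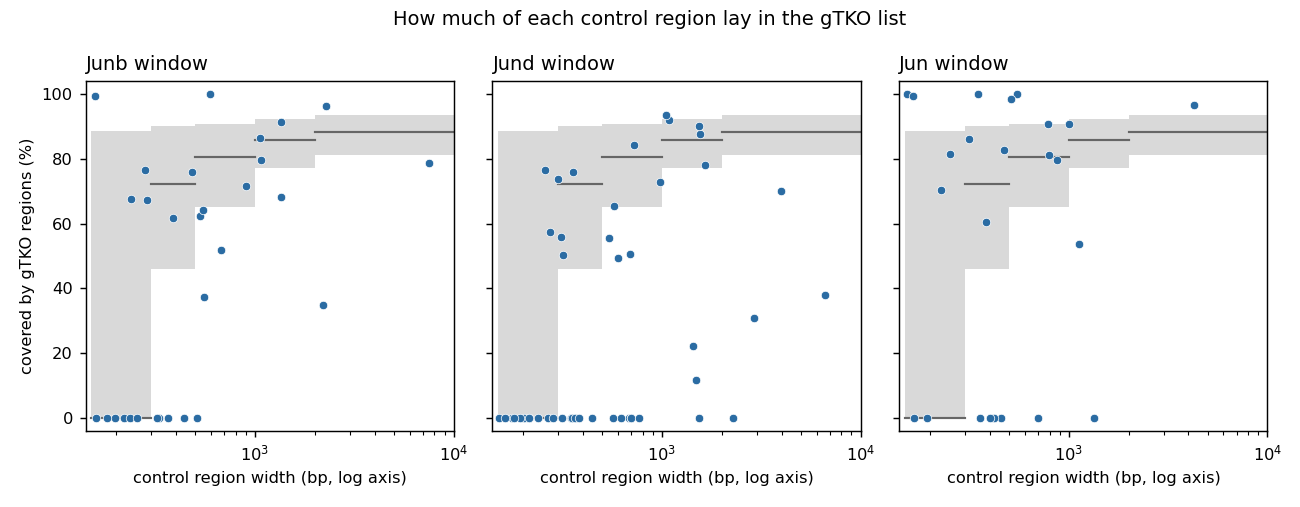
Share of each control region that lay in gTKO regions (%) against the width of the control region (bp, log axis) in the Junb, Jund and Jun windows, 1 point per control region. Grey bands give the quartiles and lines the median of all placed control regions in 5 width classes, with medians of 85.8% at 1000 to 1999 bp and 88.4% from 2000 bp. At Jund, 6 of the 12 regions of at least 1000 bp lie below 40%. At Junb 1 of 7 does, and at Jun 1 of 3, the region without a partner.

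Each window held 1 control region among the widest of the list, and these regions differed in how they appeared in gTKO. The Junb window held the second widest placed control region, chr8:87496961-87504520 (7560 bp). The Jund window held the third widest, chr8:73236164-73242758 (6595 bp), and Jun the region of rank 25, chr4:94716399-94720678 (4280 bp). All 3 overlapped 2 or more gTKO regions, as did 31 of 36 control regions at least 4000 bp wide (86.1%), so a split at this width is usual in these lists. What differed was the amount of sequence that stayed covered, at 78.7% for Junb, 37.9% for Jund and 96.8% for Jun. Over the 36 control regions of at least 4000 bp the median was 84.2% (quartiles 58.6 and 89.4%), so the Junb region lay between the quartiles, the Jund region below and the Jun region above them.

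Over all widths, control regions with 2 or more gTKO regions numbered 2 of 30 at Junb, 6 of 48 at Jund and 2 of 24 at Jun, against 5.28% of all placed control regions. The reverse, a gTKO region over 2 or more control regions, occurred 0 times at Junb, Jund and Jun, against 1.07% of all placed gTKO regions.

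At Junb the 7560 bp region was represented in gTKO by 6 pieces of 527, 1011, 1016, 187, 1915 and 1294 bp. The gaps between them measured 230, 140, 21, 35 and 197 bp, 623 bp in all. A further 948 bp at the lower coordinate end and 39 bp at the upper end lay outside. Most of the uncovered sequence of this region was therefore at 1 end, and the pieces stood close together. At Jund the 6595 bp region was represented by 8 pieces, none wider than 562 bp and the narrowest 152 bp. Its 7 gaps ranged from 11 to 1480 bp and summed to 3591 bp, with 406 and 100 bp uncovered at the ends. At Jun the 4280 bp region corresponded to a piece of 3973 bp and one of 193 bp, separated by 98 bp. The 3973 bp piece was the sixth widest placed region of the gTKO list, in which the widest measured 5090 bp.

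**Figure D3:**
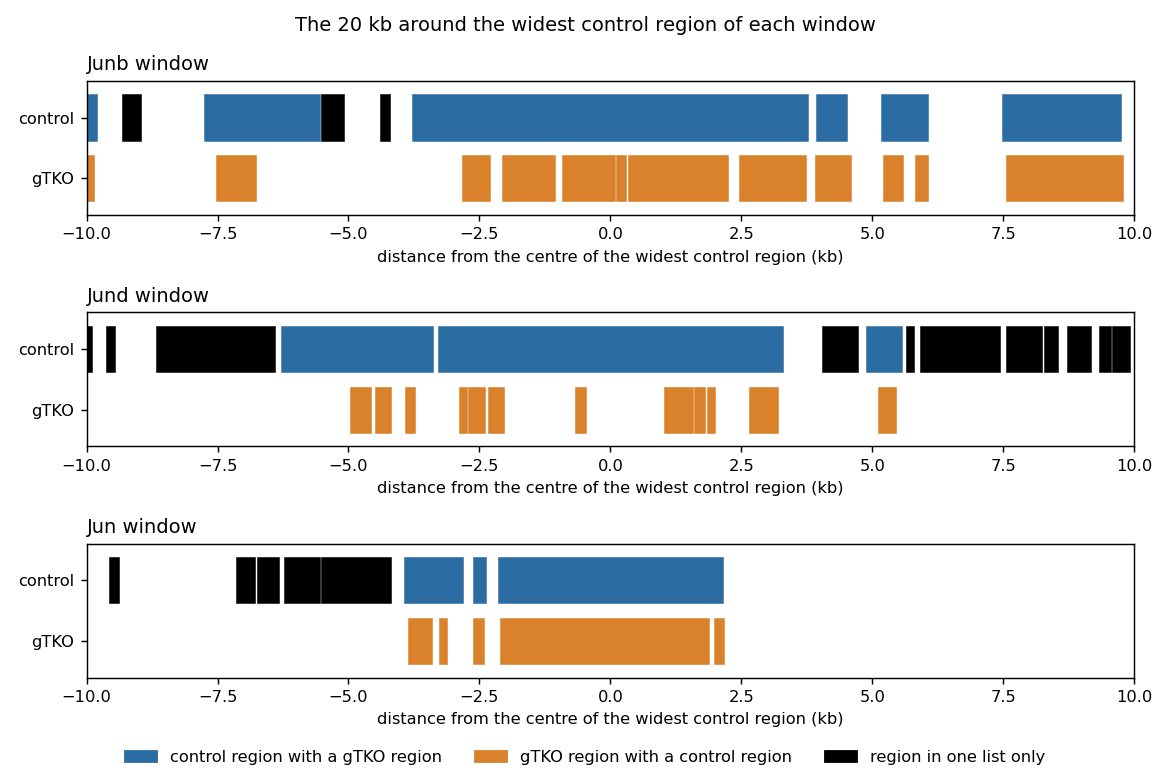
The 20 kb around the centre of the widest control region of each window, with control regions in the upper and gTKO regions in the lower row of each panel and the distance from that centre in kb. Blue and orange regions have a partner in the other list, and black ones do not. The gTKO pieces lie close together at Junb, where gaps are 21 to 230 bp, and leave gaps of up to 1480 bp at Jund, while 1 piece of 3973 bp spans most of the Jun region.

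The other wide control regions of the Junb window were mostly kept as single regions, like most wide control regions of the whole list. Of 7 control regions at least 1000 bp wide, 6 overlapped a single gTKO region and 1 was split, against 78.0% and 21.5% of all placed control regions of that width. The region chr8:87508209-87510485 (2277 bp) was 96.4% covered by a gTKO region of 2243 bp, and chr8:87513704-87515056 (1353 bp) was 91.3% covered by one of 1235 bp. Coverage was 86.4% for chr8:87548774-87549826 (1053 bp), 79.5% for chr8:87489374-87490439 (1066 bp) and 68.3% for chr8:87550223-87551566 (1344 bp). The exception was chr8:87492979-87495189 (2211 bp), of which a gTKO region of 773 bp covered 35.0%. It was among the 21 least covered of the 964 control regions of at least 2000 bp. A second split region at Junb, chr8:87505908-87506810 (903 bp), held gTKO pieces of 397 and 251 bp.

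At Jund the wide control regions fell into 2 sets by position. Of 12 control regions at least 1000 bp wide, 4 overlapped a single gTKO region, 6 were split and 2 had none. Those away from the centre were largely covered in gTKO: chr8:73182998-73184554 (1557 bp) by 87.8%, chr8:73196566-73198213 (1648 bp) by 78.1%, chr8:73275942-73277477 (1536 bp) by 90.0%, chr8:73278203-73279284 (1082 bp) by 92.1% and chr8:73284305-73285356 (1052 bp) by 93.6%. In the centre, chr8:73221923-73225897 (3975 bp) was 70.2% covered, by pieces of 2222 and 567 bp, with 940 bp uncovered at its upper end. The regions that followed it were covered far less, chr8:73226246-73227678 (1433 bp) by 22.1%, chr8:73227706-73229184 (1479 bp) by 11.6% and chr8:73233173-73236069 (2897 bp) by 30.8%, in 3 pieces of 179 to 401 bp. The 2897 bp region, the 6595 bp region and the 2281 bp region without a partner were among the 26 least covered of the 964 control regions of at least 2000 bp.

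At Jun there were 3 control regions of at least 1000 bp. Besides the 4280 bp region, chr4:94714607-94715725 (1119 bp) was 53.6% covered in gTKO, by pieces of 450 and 150 bp, and the 1331 bp region had no partner. These 3 regions lie in coordinate order as the uncovered, the partly covered and the nearly fully covered one. Taking the windows in turn, gTKO regions of at least 1000 bp numbered 6 at Junb, 3 at Jund and 1 at Jun. All of them overlapped a control region. Over all widths 9.75% of placed gTKO regions overlapped none, and the share at this width was not computed.

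**Figure D4:**
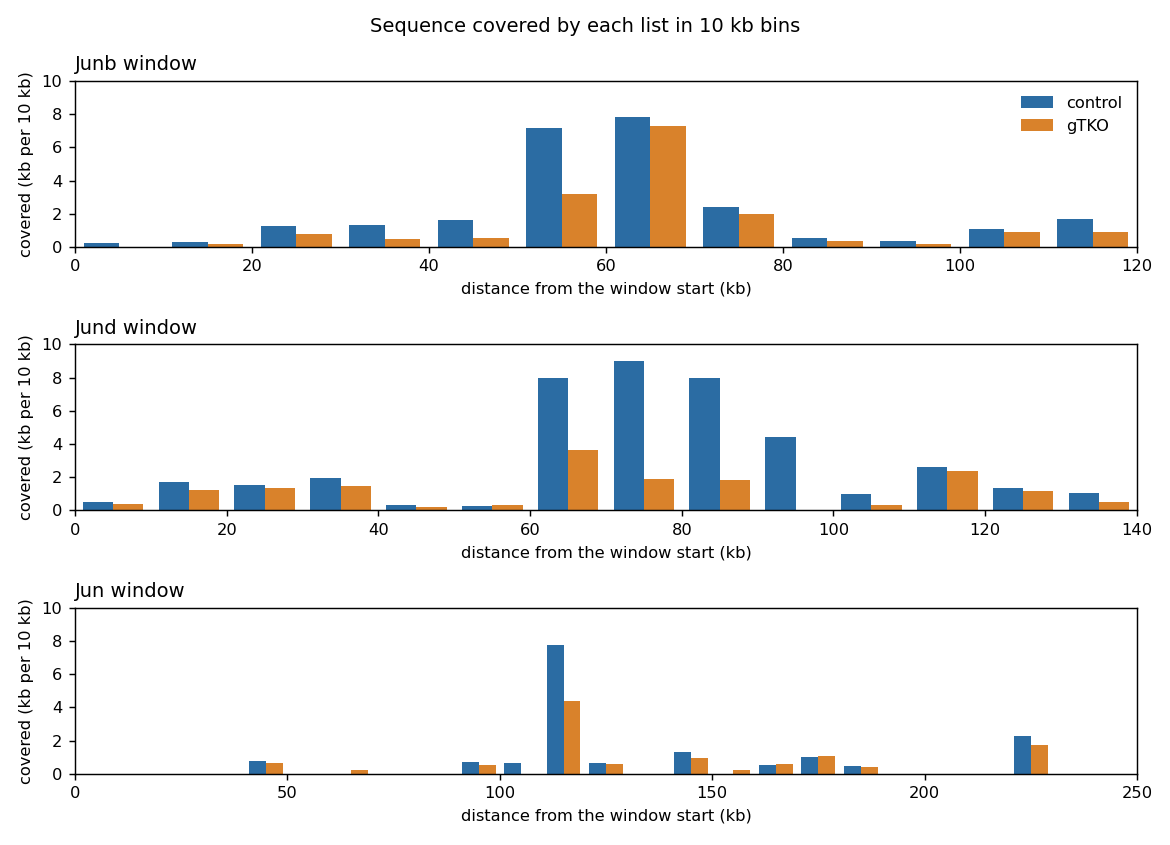
Sequence covered by control regions (blue) and gTKO regions (orange) in bins of 10 kb, in kb, against the distance from the start of the Junb, Jund and Jun windows. At Jund, control coverage between 70 and 80 kb was 9025 bp and gTKO coverage 1904 bp, while between 110 and 120 kb they were 2618 and 2383 bp.

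Bins of 10 kb placed these differences within the windows. At Jund, 4 adjacent bins held most of the gap: control and gTKO coverage were 7974 and 3654 bp between 60 and 70 kb from the window start, 9025 and 1904 bp between 70 and 80 kb, 7992 and 1836 bp between 80 and 90 kb, and 4428 and 0 bp between 90 and 100 kb. At Junb, the bin from 50 to 60 kb had 7177 bp in control and 3177 bp in gTKO, while the next bin had 7807 and 7291 bp. At Jun, a single bin, from 110 to 120 kb, held 7774 bp of control and 4366 bp of gTKO coverage. In 3 bins, 1 at Jund and 2 at Jun, both lists had regions and the gTKO list covered slightly more, with 344 against 259 bp at Jund and 567 against 549 bp and 1068 against 1024 bp at Jun.

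The densest part of each window was taken by chaining control regions no more than 3 kb apart. At Jund this chain held 31 control regions over 38.2 kb (chr8:73219307-73257473), of whose 29678 bp gTKO regions covered 25.6%, and in the rest of the window 74.0% of 12044 bp was covered. Control-only regions made up 23 of 31 in the chain and 3 of 17 outside it. At Jun the chain held 8 control regions over 11.7 kb (chr4:94708966-94720678) and was 57.2% covered, against 75.4% outside. At Junb the order was the opposite, with 71.4% coverage in a chain of 13 regions over 25.9 kb (chr8:87489374-87515242) and 49.2% in the rest. Over the 143 placed chains of at least 10 control regions, the median coverage was 50.8% (quartiles 36.3 and 68.2%), below the 71.5% of all control sequence, and 51.7% of their regions were control-only. Beside these, the Jund chain was below the lower quartile, with 23 of 143 at or below it, and the Junb chain above the upper one, with 113 of 143 at or below it.

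Among regions that matched 1 to 1, control regions were mostly wider at Junb and Jund and less clearly so at Jun. The control region was the wider one in 15 of 17 pairs at Junb, 15 of 16 at Jund and 9 of 14 at Jun, against 79.5% of 37878 pairs over the placed chromosomes. The median ratio of control to gTKO width was 1.46 at Junb, 1.63 at Jund and 1.13 at Jun, and 1.15 over all pairs. The largest ratios were 2.86 at Junb, 8.60 at Jund and 1.66 at Jun. At Jun, 5 gTKO regions were wider than their partner, and 4 of them lay from 94761324 to 94773281, with differences of 3 to 30 bp. The fifth, chr4:94748415-94748675 (261 bp), exceeded its control partner by 108 bp. At Junb the gTKO region chr8:87504637-87505342 (706 bp) exceeded its partner by 114 bp, and it directly followed the pieces of the 7560 bp region.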

How the data were processed

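ATAC-seq peaks were deposited by the authors as 1 list per genotype, with chromosome, start and end only, and every library's label names its genotype's list. Per the submitters' processing notes, the tools of the series include Bowtie2, Picard, MACS2 and bedtools, with build mm9. The calling threshold, read filters, pooling of libraries and depth were not given in the sources used here. The 16 RNA-seq libraries were not analysed here.

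Peaks on chromosomes 1 to 19, X and Y were used as deposited, which left out 1044 control and 620 gTKO peaks. A partner is a region of the opposite list that shares at least 1 bp. A region was called kept with 1 partner, split with 2 or more and control-only or gTKO-only with none. Regions were named if at least 1000 bp wide, or at least 300 bp wide without a partner. For windows without a gTKO-only region of 300 bp, the widest such region, if any, was named. Coverage is the share of base pairs of control regions that also lie in gTKO regions. The windows, members and alternatives were chosen with earlier results of these data known, and the chains of 3 kb, the tiles, the bins and the runs were chosen after the lists had been seen. Partner counting was tested on simulated data. Positions are 1-based. Python 3.11.15, numpy 2.4.6, pandas 2.3.3, scipy 1.17.1 and matplotlib 3.10.9 were used.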

Additional observations from a re-analysis of the deposited data

How the results depend on the processing

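Settings were changed one at a time. Under every setting run, Jund had the lowest share of control sequence also covered in gTKO. The share at Jund, 39.6% as reported, was 41.2% with any overlap with the window counted, 29.1% with the window narrowed by 20% at each end, 50.9% with it widened by 50 kb at each end, 35.8% with regions of at least 300 bp and 38.1% with neighbours merged across 500 bp. In the same order the share at Junb was 67.2, 65.5, 67.0, 64.0 and 63.9%. At Jun it was 62.7% in the narrowed window, 60.8% with regions of at least 300 bp, 66.7% after merging across 150 bp and 67.0% across 500 bp.

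Counts depended more on how regions were delimited. After merging across 150 bp, control-only regions numbered 11 of 31 at Jund (35.5%), 9 of 25 at Junb (36.0%) and 5 of 20 at Jun (25.0%), and split regions 4 at Junb, 3 at Jund and 0 at Jun. After merging across 500 bp, control-only regions numbered 5 of 19 at Junb (26.3%), 3 of 22 at Jund (13.6%) and 4 of 15 at Jun (26.7%), so that Jund went from the highest share to the lowest, and split regions 2 at Jund and 1 at Jun, since chains of neighbours become single regions. With regions of at least 300 bp, Junb had 7 control-only regions of 20 (35.0%), against 24.9% of all. Split regions then numbered 1 of 20 at Junb and 0 of 18 at Jun. The gTKO-only regions numbered 1 of 22 at Jund and 0 of 10 at Jun. When 50% of both regions had to be covered, split regions numbered 0 at Junb, 0 at Jund and 0 at Jun, which that rule nearly forces. Under it, gTKO-only regions numbered 10 of 25 at Junb, 18 of 35 at Jund and 5 of 20 at Jun. The window widened by 50 kb held 4 split regions at Junb. The control list was also reduced to its 49558 widest regions, a setting chosen after seeing the data. Control-only regions then numbered 10 of 28 at Junb, 24 of 46 at Jund and 7 of 21 at Jun, against 20.2% of all. In that setting gTKO-only regions numbered 1 of 25 at Junb and 4 of 20 at Jun. For split and gTKO-only regions, the shares over all regions were not computed under the changed settings. No paired analysis was possible because the 3 libraries of a genotype share 1 list, which also keeps any replicate from being left out. The read depth is unknown, and its part in these counts was not tested.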
